A study of Mus musculus with 6 samples.

Results

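Cdkn1a, Cdkn1b, Gadd45a, Btg2, Ccnd1, Ccnd2 and Ccnd3 are 7 mouse genes that act where a cell either starts another division or leaves the cycle. They were taken by name from the tables, and all 7 are listed among the 31028 genes of the E10.5 RNA table and among the 8269 genes of the E10.5 and of the E13.5 accessibility tables. The RNA was read in single cells from pools of 5 to 9 C57BL/6 embryos, dissected at embryonic day 10.5 (E10.5) as pancreatic multipotent progenitors. Accessibility was read in single cells at E10.5, from the same kind of dissection, and at E13.5, from the pancreas of 6 embryos in each pool.

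For each assay and stage there was 1 Ptf1a+/+ (WT) library and 1 Ptf1aenh-delta/enh-delta library, here called KO, in which both copies of Ptf1a carry a deleted enhancer while the gene itself is left in place. Every group is 1 library, 6 in all, and no difference has a check across replicates. The 95% intervals given below are exact Poisson or conditional intervals that cover counting error alone, and no p-value was computed. The dissected tissue also held mesenchyme and other epithelium.

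A D cyclin binds the kinases CDK4 and CDK6, and the pair phosphorylates the retinoblastoma protein, which lets a cell pass from G1 into S phase. Cdkn1a encodes p21 and Cdkn1b encodes p27, inhibitors of cyclin-dependent kinases that hold cells in G1. Gadd45a is a small stress-induced protein and Btg2 an antiproliferative protein that recruits the mRNA deadenylation machinery, and Cdkn1a, Gadd45a and Btg2 are all textbook targets of p53. In the developing pancreas, cells that switch on Neurog3, the factor that commits progenitors to the endocrine fate, leave the cycle before they make hormone, and Cdkn1a has been described as induced by Neurog3.

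The 7 genes lie on 4 chromosomes of the GRCm38.p6 mouse assembly: Cdkn1a at chr17:29090979-29100722, Ccnd3 at chr17:47505051-47599689, Gadd45a at chr6:67035096-67037407, Ccnd2 at chr6:127125162-127152188, Cdkn1b at chr6:134920401-134925525, Btg2 at chr1:134074865-134079155 and Ccnd1 at chr7:144929931-144939831. RefSeq promoter entries of that assembly were at hand for 5 of the 7 genes, with 7 transcription starts. The 250 bases before the start are printed for the genes whose RNA was highest in Neurog3-positive cells, so that their sequence can be read beside their levels. Capitals mark an E-box (CANNTG, the letters that basic helix-loop-helix factors such as Neurog3 bind) or a p53 half-site. Each motif is its own reverse complement in pattern, so a match on one strand is a match on both, and no match of one overlapped a match of the other.
Cdkn1a, first start, chr17:29090729-29090978, plus strand: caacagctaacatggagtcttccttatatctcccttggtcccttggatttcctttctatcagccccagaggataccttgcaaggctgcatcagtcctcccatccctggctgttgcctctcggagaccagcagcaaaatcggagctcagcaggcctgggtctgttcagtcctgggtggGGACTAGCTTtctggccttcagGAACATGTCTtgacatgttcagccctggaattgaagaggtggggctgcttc
Cdkn1a, second start, chr17:29093519-29093768, plus strand: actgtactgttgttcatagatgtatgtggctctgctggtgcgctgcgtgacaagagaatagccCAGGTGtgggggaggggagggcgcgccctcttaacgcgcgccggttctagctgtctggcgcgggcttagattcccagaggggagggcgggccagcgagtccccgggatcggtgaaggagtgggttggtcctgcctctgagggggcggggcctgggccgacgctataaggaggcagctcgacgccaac
Gadd45a, chr6:67037408-67037657, minus strand: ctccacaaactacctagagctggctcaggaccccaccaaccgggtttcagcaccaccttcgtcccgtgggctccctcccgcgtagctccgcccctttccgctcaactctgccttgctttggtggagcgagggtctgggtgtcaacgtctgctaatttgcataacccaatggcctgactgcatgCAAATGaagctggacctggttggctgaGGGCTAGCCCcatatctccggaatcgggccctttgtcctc
Btg2, chr1:134079156-134079405, minus strand: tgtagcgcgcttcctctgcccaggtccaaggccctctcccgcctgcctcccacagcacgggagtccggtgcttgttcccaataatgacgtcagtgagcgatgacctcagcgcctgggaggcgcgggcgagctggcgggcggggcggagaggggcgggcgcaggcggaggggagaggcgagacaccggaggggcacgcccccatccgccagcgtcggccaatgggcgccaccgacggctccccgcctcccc
The first Cdkn1a start held 2 p53 half-sites, beginning 73 and 51 bases before the start, and no E-box. The second Cdkn1a start held 1 E-box, 187 bases before it, and no half-site. Gadd45a held an E-box 67 bases before its start and a half-site 40 bases before it. Neither motif was in the printed Btg2 window, nor in those of Cdkn1b and both Ccnd3 starts. An E-box is common, being in 66.2% of the 32851 RefSeq promoters of this length, and a p53 half-site is in 7.13% of them. The matches describe letters and not bound sites.

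The WT and KO RNA libraries held 1104 and 815 barcodes. Cells in which 1000 or more genes were detected were kept, 451 WT cells with a median of 6700 unique molecular identifiers (UMIs, 1 for each captured transcript) and 369 KO cells with a median of 9856. Ptf1a had 142 UMIs in the kept WT cells and 0 in the KO cells. The libraries shared 1 barcode, and a doublet caller marked 2 WT and 8 KO cells, which were kept.

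Cells were clustered without the 7 genes and without the lists of S-phase and mitotic genes, so the classes were not set by them. Progenitors were the cells of the cluster with the highest level of 13 progenitor markers, among them Pdx1 and Sox9, that had fewer than 2 Neurog3 UMIs, 105 in WT and 40 in KO. Neurog3-positive cells had at least 2 Neurog3 UMIs and lay outside the mesenchyme-like clusters, 14 in WT and 23 in KO. Of these, 4 and 3 cells had exactly 2 such UMIs, 18 and 21 cells outside those clusters had exactly 1, and 8 KO cells inside them had at least 2. Hormone-stage cells were sought in the endocrine-like clusters 2, 5 and 8, of which cluster 8 gave 0. They had fewer than 2 Neurog3 UMIs, and gave more of their UMIs to 8 hormone genes than 99% of the mesenchyme-like cells of their library, 26 in WT and 36 in KO. The remaining endocrine-like cells, 32 and 83, are called other endocrine-like. The summed progenitor list stood at 2048 UMIs per 1000000 in WT and 2305 in KO progenitors, against 306 and 319 in mesenchyme-like cluster 3. The hormone threshold was high, 4.72% of a cell's UMIs in WT and 4.93% in KO, because a second mesenchyme-like cluster (cluster 6) carried a median of 0.908% and 0.854% hormone RNA, and 15 WT and 14 KO endocrine-like cells lay within 20% of the threshold.

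Levels are UMIs of a gene per 1000000 UMIs of its class (CPM). A ratio of 2 classes is given with its interval, and a gene is given as higher or lower where log2 of the ratio of CPM + 10 is at least 1 either way and the 2 classes hold at least 50 UMIs of it together.

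Cdkn1a, the p21 gene, was highest in Neurog3-positive cells in both libraries. It stood at 42.3 CPM (32.2 to 54.5) in WT progenitors and 109 (85.4 to 137) in KO progenitors. In Neurog3-positive cells it reached 592 (483 to 720) in WT and 918 (798 to 1051) in KO. It was lower again in hormone-stage cells, at 164 (125 to 212) and 355 (301 to 416). Other endocrine-like cells had 292 (240 to 353) and 322 (286 to 361), above the hormone-stage level in WT and close to it in KO. Neurog3-positive cells were thus the highest class and progenitors the lowest in both libraries, with intervals that did not overlap. Among WT other endocrine-like cells, the cell with the most Cdkn1a held 36 of the 108 UMIs. The median over these WT cells was 23.1 CPM, against 96.4 in WT hormone-stage cells. A UMI was seen in 16 of 32 and 19 of 26 of them. The WT order of other endocrine-like above hormone-stage cells therefore holds for the summed level and not for the median.

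Neurog3-positive cells held 14.0-fold (10.1 to 19.7) more Cdkn1a than progenitors in WT, the 14th highest of 4657 genes compared, and 8.42-fold (6.42 to 11.2) more in KO, the 28th of 3372. Hormone-stage cells held 3.88-fold (2.66 to 5.67) more than progenitors in WT and 3.26-fold (2.45 to 4.37) more in KO. From Neurog3-positive to hormone-stage cells the level was 3.61-fold (2.59 to 5.07) lower in WT and 2.59-fold (2.09 to 3.21) lower in KO. The last difference fell short of the 2-fold mark in both libraries when 1 Neurog3 UMI was enough for the Neurog3-positive class, at log2 ratios of −0.76 in each.

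The RNA was found in most cells of the class, though unevenly. In WT 1 cell held 37 of the 101 Cdkn1a UMIs, and in KO 1 cell held 27 of the 210. The median over Neurog3-positive cells was 295 CPM in WT and 979 in KO, against 0 and 86.8 in progenitors. A Cdkn1a UMI was seen in 11 of 14 WT and 20 of 23 KO Neurog3-positive cells, against 29 of 105 and 26 of 40 progenitors. With every cell thinned to 2000 UMIs, the shares were 57.1% and 69.6% in Neurog3-positive cells, 7.77% and 13.2% in progenitors, and 26.9% and 36.1% in hormone-stage cells. Mesenchyme-like cluster 3, where Cdkn1a was lowest, had a UMI in 2 of 77 WT and 2 of 40 KO cells at median depths of 2031 and 1833 UMIs, and in 0 of 43 and 0 of 15 after thinning, with exact binomial 95% intervals that reach 8.22% and 21.8%. The hormone-carrying mesenchyme-like cluster 6 had 169 and 173 CPM of Cdkn1a, and whether free or co-captured endocrine RNA accounts for that was not tested.

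**Figure D1:**
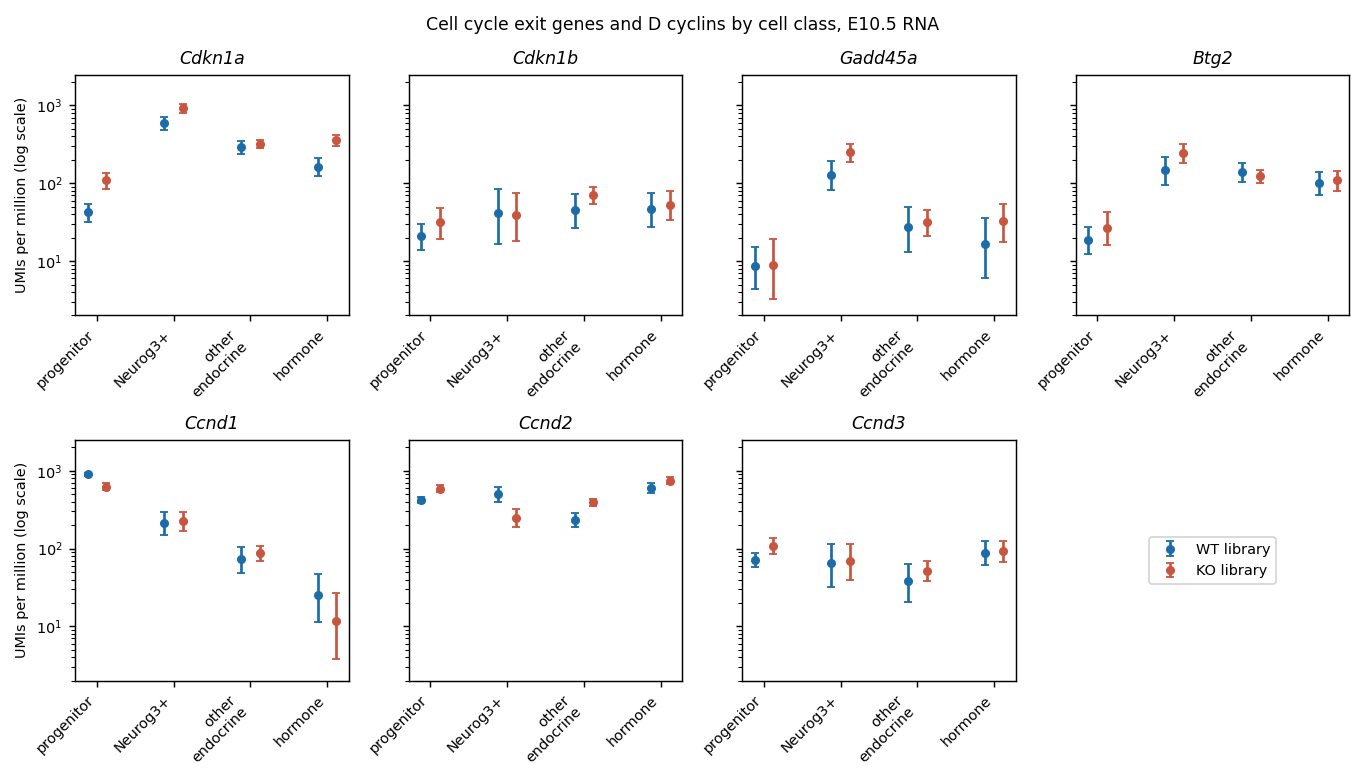
Each panel gives 1 gene. The vertical axis is CPM on a log scale, the horizontal axis the 4 cell classes, points are the WT (blue) and KO (red) libraries, and bars are exact Poisson 95% intervals. Cdkn1a peaks in Neurog3-positive cells at 592 and 918, while Ccnd1 steps down from 898 and 624 in progenitors to 25.0 and 11.6 in hormone-stage cells.

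Gadd45a followed the same order at fewer UMIs. It had 8.59 CPM (4.44 to 15) in WT and 8.96 (3.29 to 19.5) in KO progenitors, 129 (80.9 to 195) and 249 (189 to 323) in Neurog3-positive cells, and 16.7 (6.12 to 36.3) and 32.5 (17.8 to 54.5) in hormone-stage cells. The Neurog3-positive interval lay above those of the other classes in each library. The KO ratio of Neurog3-positive cells to progenitors was 27.8 (12.0 to 79.0), 17th of 3372 genes, and the step back to hormone-stage cells was 7.67-fold (4.22 to 14.9) lower. In WT the first ratio was 15 (7.12 to 33.3) from 22 and 12 UMIs, together under the minimum of 50, so it was not compared.

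Btg2 was also lowest in progenitors, and in the later endocrine classes it stayed above the progenitor level. Progenitors had 18.6 CPM (12.2 to 27.3) in WT and 26.9 (15.9 to 42.5) in KO. Neurog3-positive cells had 147 (94.9 to 216) and 245 (185 to 318), other endocrine-like cells 138 and 123, and hormone-stage cells 100 (70.1 to 139) and 109 (80.1 to 145). The 3 WT endocrine classes overlapped in their intervals, and the KO Neurog3-positive class lay above the other KO classes.

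Against progenitors, Btg2 was 7.88-fold (4.36 to 14.2) higher in WT Neurog3-positive cells, 23rd of 4657 genes, and 9.11-fold (5.28 to 16.5) higher in KO, 30th of 3372. In hormone-stage cells it was 5.37-fold (3.16 to 9.27) and 4.06-fold (2.31 to 7.42) higher than in progenitors. The hormone-stage level was 2.24-fold (1.5 to 3.38) below the Neurog3-positive level in KO, which fell short of the mark under 4 of 16 alternatives, with log2 ratios of −0.84 at 2000 detected genes, −0.66 at 1 Neurog3 UMI, −0.91 at 4 and −0.89 with a pseudocount of 50. In WT that step was 1.47-fold (0.843 to 2.51), short of the mark, and its log2 ratio ran from −1.24 with Neurog3-positive cells from the endocrine-like clusters alone to 0.56, the other way, at 1 Neurog3 UMI.

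Cdkn1b, the p27 gene, had too few UMIs to be compared between progenitors, Neurog3-positive and hormone-stage cells. It stood at 20.8 CPM (13.9 to 29.8) in WT and 31.4 (19.4 to 47.9) in KO progenitors, 41.1 (16.5 to 84.6) and 39.3 (18.0 to 74.7) in Neurog3-positive cells, and 47.3 (27.5 to 75.7) and 53.4 (33.8 to 80.1) in hormone-stage cells. These intervals overlapped in each library, and no pair of the 3 classes held 50 UMIs. Other endocrine-like cells had 46.0 (26.8 to 73.6) in WT and 71.2 (54.9 to 90.7, 65 UMIs) in KO, the latter above KO progenitors with no overlap of the intervals. The hormone-stage ratio to progenitors was 2.28 (1.17 to 4.28) in WT and 1.70 (0.901 to 3.23) in KO. In endocrine-like cluster 8, where Cdkn1a was highest, Cdkn1b had 0 UMIs in 6 WT cells and 3 in 16 KO cells.

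Ccnd1, the D cyclin of many cycling epithelia, was highest in progenitors and lowest in hormone-stage cells. WT progenitors had 898 CPM (849 to 949) and KO progenitors 624 (566 to 687). Neurog3-positive cells had 211 (148 to 292) and 227 (170 to 298), other endocrine-like cells 73.0 (48.1 to 106) and 87.6 (69.4 to 109), and hormone-stage cells 25.0 (11.4 to 47.5) and 11.6 (3.77 to 27.1). No interval of 1 of these classes overlapped that of the next in either library. The WT Neurog3-positive value rests on cells outside the endocrine-like clusters, since 28 of its 36 UMIs came from 4 cells of the progenitor cluster and 7 from 1 cell of cluster 1. The 8 WT cells of the class in clusters 2, 5 and 8 held 1 Ccnd1 UMI, and with these alone the log2 ratio to progenitors was −5.34, so the place of WT Neurog3-positive cells above the later classes does not hold there. In KO, 36 of the 52 UMIs came from 3 cells of the progenitor cluster. The KO cells of the class in clusters 2 and 8 had 137 and 74.5 CPM. Both of their intervals overlapped that of KO other endocrine-like cells and lay above that of KO hormone-stage cells.

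Ccnd1 was 35.9-fold (18.8 to 78.7) lower in WT hormone-stage cells than in WT progenitors, the lowest ratio of 5087 genes compared. It was 53.8-fold (22.9 to 167) lower in KO, the second lowest of 3982. The first step, to Neurog3-positive cells, was 4.25-fold (3.06 to 6.10) in WT and 2.75-fold (2.05 to 3.74) in KO. Where 1 Neurog3 UMI was enough for the class, the WT log2 ratio was −0.66, short of the mark, and at 4 or more it was −3.58. After thinning to 2000 UMIs, 78.6% of WT and 63.2% of KO progenitors kept a Ccnd1 UMI, against 3.85% and 0% of hormone-stage cells, where the exact binomial 95% interval of 0 of 36 reaches 9.74%. Ccnd1 was not particular to progenitors among the epithelial clusters, since hepatobiliary-like cluster 7 had 697 CPM in WT and 539 in KO.

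Ccnd2, the D cyclin known for its part in beta cell division after birth, did not follow Ccnd1. It had 420 CPM (387 to 456) in WT and 588 (532 to 649) in KO progenitors, and 603 (526 to 689) and 749 (670 to 836) in hormone-stage cells. The hormone-stage ratio to progenitors was 1.44 (1.22 to 1.68) in WT and 1.27 (1.10 to 1.48) in KO, within the 2-fold mark. Mesenchyme-like cluster 3 held the most, at 1691 and 1953.

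In Neurog3-positive cells Ccnd2 differed between the libraries, with 499 CPM (398 to 617) in WT and 249 (189 to 323) in KO. The KO level was 2.36-fold (1.78 to 3.17) below KO progenitors and 3.01-fold (2.26 to 4.06) below KO hormone-stage cells. The WT level was 1.19 times (0.933 to 1.49) that of WT progenitors. Of the 85 WT UMIs, 33 came from 1 cell of unnamed cluster 1, and 28 from 4 cells of the progenitor cluster. Taken from the endocrine-like clusters alone, the WT Neurog3-positive cells lay below progenitors, at a log2 ratio of −0.60, and at 4 or more Neurog3 UMIs the ratio was −1.34. The KO value stayed on the lower side, at −1.10 and −1.02.

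Ccnd3 stayed within the 2-fold mark in every class comparison with enough UMIs. It had 71.6 CPM (58.3 to 87.1) in WT and 109 (85.4 to 137) in KO progenitors, 64.5 (32.2 to 115) and 69.9 (40.0 to 114) in Neurog3-positive cells, and 89.0 (60.8 to 126) and 92.8 (66.3 to 126) in hormone-stage cells. Its intervals overlapped between all 3 classes in each library.

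In all, 20 of the 30 class values that could be compared passed the 2-fold mark. From progenitors to Neurog3-positive cells, 2 of 5 members compared in WT were higher and 1 lower, against 3.59% and 4.62% of all genes. In KO the counts were 3 and 2 of 6, against 3.71% and 5.01%. From progenitors to hormone-stage cells they were 2 and 1 of 5 in WT, against 7.21% and 10.7%, and 2 and 1 of 5 in KO, against 8.21% and 13%. From Neurog3-positive to hormone-stage cells 0 of 3 were higher and 1 lower in WT, against 6.15% and 3.96%, and in KO 1 of 6 was higher and 4 lower, against 5.70% and 5.95%. Where cells were thinned to 2000 UMIs, only 10 of the 42 class values kept 50 UMIs, and 6 of them passed.

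**Figure D2:**
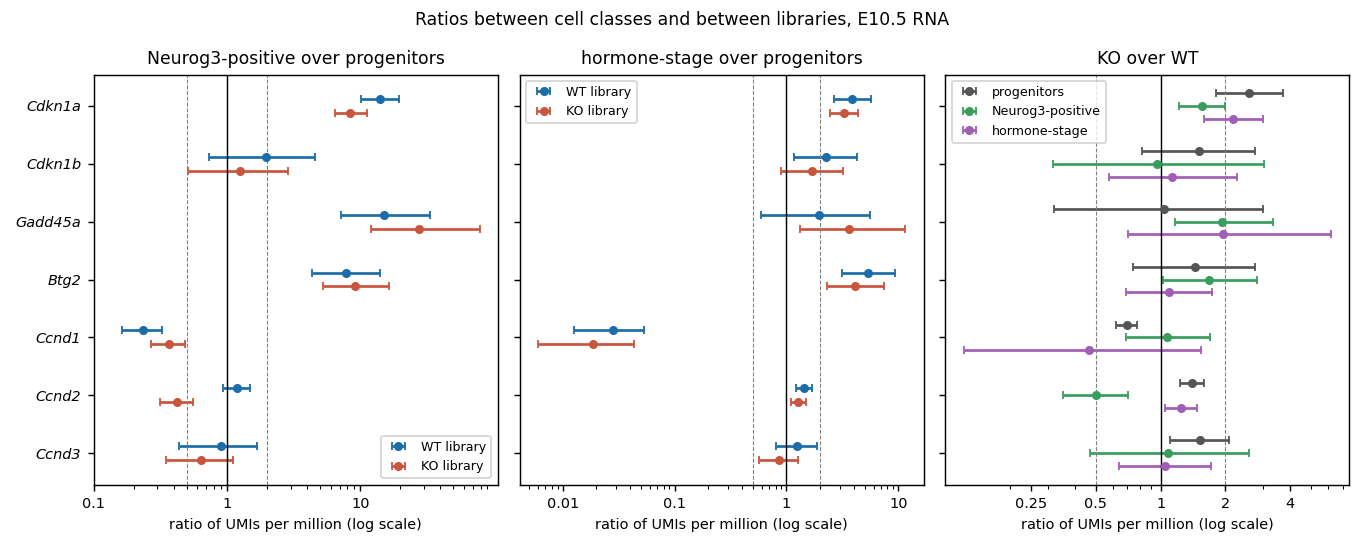
Horizontal axes are ratios of CPM on log scales with exact conditional 95% intervals, for Neurog3-positive over progenitors, hormone-stage over progenitors, and KO over WT in 3 classes. Dashed lines mark 2-fold either way. Cdkn1a, Gadd45a and Btg2 lie to the right in the first panel, Ccnd1 far to the left in the first and second, and the KO over WT points lie between 0.464 (Ccnd1 in hormone-stage cells, from 5 and 9 UMIs) and 2.58 (Cdkn1a in progenitors).

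The Neurog3-positive class was a mixture. In WT 5 of its 14 cells came from cluster 8, 4 from the progenitor cluster 0, 2 from cluster 2 and 1 each from clusters 1, 4 and 5, and in KO 13 of 23 came from cluster 8, 7 from cluster 2 and 3 from cluster 0. Cluster 8, led by Neurog3 and Tubb3, held 66 of the 101 Cdkn1a UMIs of the WT class and 145 of the 210 of the KO class. Neurog3-positive cells of the progenitor cluster had 137 CPM of Cdkn1a in WT (62.9 to 261, 4 cells) and 362 in KO (234 to 534, 3 cells), with Ccnd1 still at 428 and 521.

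Across progenitor and endocrine-like cells ordered by their Neurog3 UMIs, Cdkn1a and Gadd45a were highest at 4 or more. WT cells with 0, 1, 2 to 3, and 4 or more Neurog3 UMIs (153, 10, 6 and 6 cells) had 108, 79.96, 332 and 1139 CPM of Cdkn1a. KO cells (141, 18, 6 and 17) had 254, 302, 723 and 967. Gadd45a went from 13.1 to 179 in WT and from 20.6 to 257 in KO between the first and last of these groups. Btg2 was 56.8, 0, 142 and 179 in WT, and 84.2, 128, 372 and 213 in KO, so that its last group did not exceed the one before in KO. Ccnd1 was lowest at 4 or more in WT, at 65.1 (17.7 to 167), but in KO stood at 268 (198 to 354) there against 65.7 (13.5 to 192) at 2 to 3. These KO values rest on 49 and 3 UMIs. Of the Neurog3-positive KO cells, 3 from the progenitor cluster held 36 Ccnd1 UMIs, so most of the UMIs at 4 or more came from them.

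**Figure D3:**
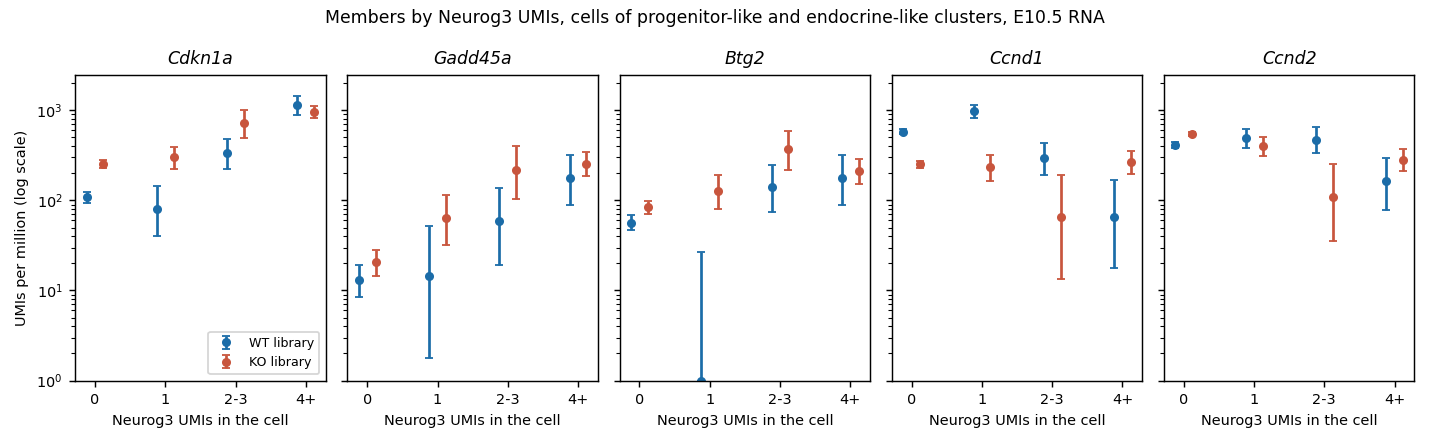
CPM on a log scale are plotted against the Neurog3 UMIs counted in a cell, for progenitor-like and endocrine-like clusters, with exact Poisson 95% intervals. The 0 UMIs of Btg2 in 10 WT cells with 1 Neurog3 UMI are drawn at the lower edge. Cdkn1a reaches 1139 in WT and 967 in KO at 4 or more Neurog3 UMIs.

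The 3 endocrine-like clusters differed in Cdkn1a, Gadd45a, Btg2, Ccnd1 and Ccnd2. Cluster 8 (6 WT and 16 KO cells) had 1780 CPM (1416 to 2209) and 1647 (1418 to 1902) of Cdkn1a, 326 and 392 of Gadd45a, and 369 and 320 of Btg2. Cluster 2 (38 and 86 cells), led by Chgb, Sct and Fev, had 243 and 255 of Cdkn1a and 138 and 272 of Ccnd2. Cluster 5 (22 and 37 cells), led by Cartpt, Ghrl and Ins1, had 209 and 440 of Cdkn1a, and 753 (664 to 850) and 878 (798 to 965) of Ccnd2. Ccnd1 was below its progenitor level in all 3. It was at 76.3 (52.2 to 108) and 97.0 (77.7 to 120) in cluster 2. In cluster 5 it was at 11.6 (3.17 to 29.8) and 14.1 (5.68 to 29.1), with no overlap of the intervals in either library. Cluster 8 had 21.7 (0.55 to 121) and 62.3 (25.1 to 128).

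Ccnd2 and the mitotic genes were both higher in cluster 5 than in clusters 2 and 8. The summed mitotic list (10 genes, among them Mki67 and Top2a) was 1657 and 836 CPM in cluster 5, 341 and 522 in cluster 2, and 260 and 267 in cluster 8. The list was thus lowest in cluster 8, where Cdkn1a was highest. Its WT interval there (135 to 455) overlapped that of cluster 2 (287 to 401), and its KO interval (180 to 381) lay below that of cluster 2 (476 to 571). In progenitors the list was 2511 and 2816. The summed S-phase list was 744 and 416 in cluster 5, 238 and 291 in cluster 2, and 239 and 320 in cluster 8. Of the hormone-stage cells, 15 of 26 in WT and 22 of 36 in KO came from cluster 5 and the others from cluster 2, so that class joins cells with a high and a low Ccnd2 level.

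**Figure D4:**
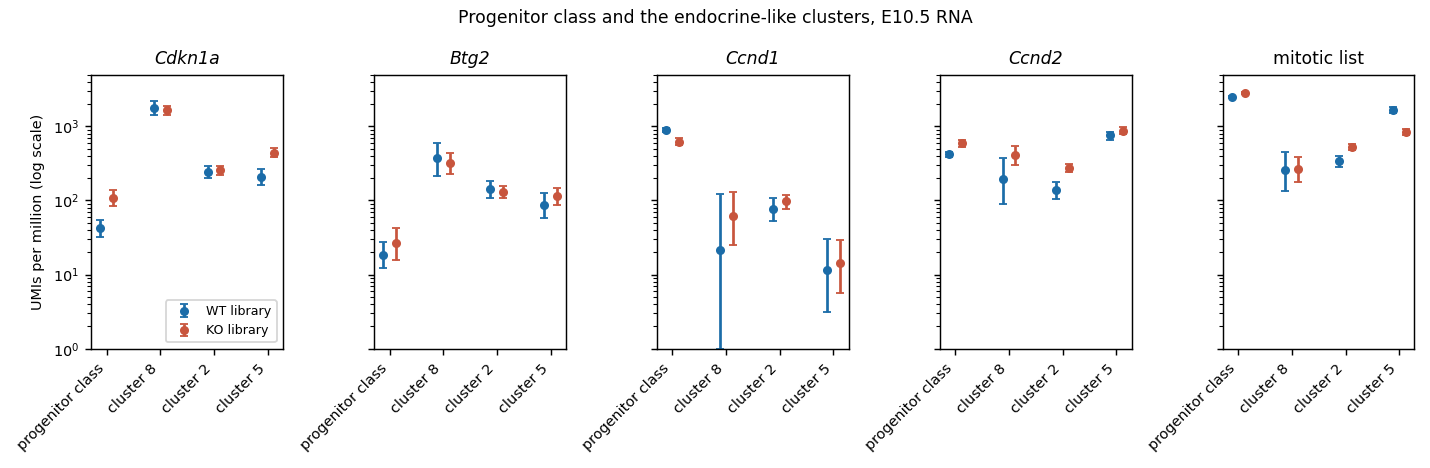
CPM on a log scale are shown for the progenitor class and for the endocrine-like clusters 8, 2 and 5, with exact Poisson 95% intervals that are cut at the lower edge of the axis. Cdkn1a is highest in cluster 8 at 1780 and 1647, and Ccnd2 and the mitotic list are higher in cluster 5 than in clusters 8 and 2.

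The lists of cycling genes gave the same order of classes as Ccnd1 in KO, and nearly so in WT. The mitotic sum went from 2511 CPM in WT progenitors to 1132 in Neurog3-positive cells and 898 in hormone-stage cells, and from 2816 to 1342 and 522 in KO. The Neurog3-positive sums came largely from a few cells. In KO, 3 cells of progenitor cluster 0 held 262 mitotic UMIs, against 22 and 23 in cells of clusters 2 and 8 (335 and 245 CPM). In WT, 4 cells of cluster 0 and 1 each of clusters 1 and 5 held 69, 54 and 56, against 3 and 11 in clusters 2 and 8 (141 and 313 CPM). In clusters 2 and 8 the Neurog3-positive cells were thus not above the hormone-stage class. From progenitors to hormone-stage cells, 9 of 10 mitotic genes compared were lower in WT and 8 of 9 in KO, with median log2 ratios of −1.42 and −2.09 against −0.06 and −0.13 for all genes. Of the S-phase genes 4 of 9 were lower in WT and 7 of 8 in KO. The stress list (10 immediate early and heat shock genes) summed to 529 and 532 CPM in progenitors, 311 and 393 in Neurog3-positive cells and 117 and 104 in hormone-stage cells. Of its 10 genes, 2 had enough UMIs to be compared from progenitors to Neurog3-positive cells in each library. Any part of stress in the Cdkn1a, Gadd45a and Btg2 levels was not tested.

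Other genes of G1 control passed the mark about as often as all genes from progenitors to Neurog3-positive cells. Of 36 further G1 genes, 15 could be compared in WT and 11 in KO from progenitors to Neurog3-positive cells. In WT 0 were higher and 1, Cks1b, was lower, against 3.59% and 4.62% of all genes. In KO 1, Gadd45g, was higher and 0 were lower, against 3.71% and 5.01%. Gadd45g, a kin of Gadd45a, went from 2.99 CPM in KO progenitors to 324 in KO Neurog3-positive cells, a ratio of 108 (29.0 to 911), and from 0.716 to 64.5 in WT, where 1 and 11 UMIs were too few to compare. Among p53 itself and its targets beside the members, 4 genes could be compared in WT and 3 in KO, and 0 passed either way. Bax, a p53 target of the apoptosis pathway, had ratios of 1.13 (0.836 to 1.5) and 1.40 (1.08 to 1.79).

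In hormone-stage cells, 5 of 15 G1 genes compared in WT were lower than in progenitors and 0 higher, against 10.7% and 7.21% of all genes. In KO 3 of 10 were lower and 0 higher, against 13% and 8.21%. Cks1b, which helps SKP2 mark p27 for destruction, was lowest on average, with 438 and 430 CPM in progenitors and 136 and 107 in hormone-stage cells. Cdk4, the partner kinase of the D cyclins, went from 731 and 932 to 314 and 427. Trp53, the p53 gene, went from 156 and 185 to 83.4 and 71.9, past the 2-fold mark in KO alone. At the upper end were Btg1, a kin of Btg2, with ratios of 1.94 (1.44 to 2.59) and 0.951 (0.683 to 1.31), Bax with 1.34 (1.10 to 1.63) and 1.12 (0.894 to 1.39), and Cdkn1c, the p57 inhibitor gene, with 0.767 (0.638 to 0.917) and 0.823 (0.717 to 0.944).

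Trp53cor1 encodes a long noncoding RNA and lies 11852 bases from Cdkn1a on chromosome 17. It was looked at because it was among the leading genes of cluster 8, a choice made after the values were seen. It had 1 UMI in WT and 24 in KO Neurog3-positive cells, 5.87 and 105 CPM, against 7.16 and 8.96 in progenitors. The counts are under the minimum of 50, and the WT interval in Neurog3-positive cells runs from 0.149 to 32.7 CPM.

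Across 18 sums of a class or cluster in 1 library, each of at least 10 cells, the genes most like each member were found among 6006 genes by Pearson r of log2(CPM + 10). These points share libraries and depth, so r is a description. Tox3 (r 0.96), Krt7 (0.94) and Insm1 (0.94), an endocrine transcription factor, were most like Cdkn1a. Cadps, Igfbpl1 and Cacna1a were most like Btg2 (0.96 to 0.97), and Cdkn1a itself was most like Gadd45a (0.87), before Arpc5 and Tubb3. Dctpp1, Tk1 and Sparc were most like Ccnd1 (0.92 to 0.94), of which Tk1 makes thymidine nucleotides for S phase. Ccnd2 and Ccnd3 were each other's closest gene (0.89), followed by Lgi2 and Dpysl3 for Ccnd2 and by Hdgfl3 and Rab34 for Ccnd3. Kif5b, Peg10 and Ubl3 were most like Cdkn1b (0.87 to 0.88). Ccnd1 and Ccnd2 had an r of −0.00038, so their levels over these sums ran neither together nor apart.

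Between genotypes, Cdkn1a was the only member that passed the 2-fold mark, in 2 of the 3 classes. In progenitors it was 2.58-fold (1.81 to 3.70) higher in KO, 70th of 5771 genes, and all genes had a median log2 ratio of 0.16 there, relative to which the Cdkn1a log2 ratio of 1.19 is 1.02. In hormone-stage cells it was 2.16-fold (1.59 to 2.97) higher, 15th of 2767 genes. There 1 KO cell held 29 of the 153 Cdkn1a UMIs, and the median over cells was 216 CPM in KO against 96.4 in WT. The class came from clusters 5 and 2. Over all cells of cluster 5, Cdkn1a was at 209 CPM in WT and 440 in KO, and over all cells of cluster 2 at 243 and 255. In Neurog3-positive cells the ratio was 1.55 (1.22 to 1.98), and in other endocrine-like cells the ratio was 1.10 (0.881 to 1.39), both within the mark. The Neurog3-positive log2 ratio of 0.62 passed the mark where 1 Neurog3 UMI was enough (1.06), was 0.06 in the endocrine-like clusters alone and −0.02 when thinned, and turned to −0.23 at 4 or more Neurog3 UMIs, and cluster 8 had 1780 CPM in WT and 1647 in KO.

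The counts were 1 higher and 0 lower of 5 members compared in progenitors, against 2.06% and 1.11% of all genes. In Neurog3-positive cells they were 0 and 0 of 5, against 2.33% and 2.40%, and in hormone-stage cells 1 and 0 of 4, against 0.687% and 0.506%. Ccnd1 had a KO ratio of 0.695 (0.621 to 0.777) in progenitors, and Ccnd2 1.40 (1.23 to 1.59) and Ccnd3 1.52 (1.11 to 2.08) were on the other side of 1. In Neurog3-positive cells Gadd45a had a ratio of 1.93 (1.16 to 3.32), Btg2 of 1.67 (1.02 to 2.79) and Ccnd2 of 0.50 (0.351 to 0.707), a log2 ratio of −0.97. Cluster 8 gave 5 WT and 13 KO cells of this class, which had 313 and 383 CPM of Gadd45a and 284 and 309 of Btg2, with overlapping intervals. The 2 WT and 7 KO cells of cluster 2 had 47.0 and 305 of Gadd45a and 329 and 350 of Btg2. The 4 WT and 3 KO cells of cluster 0 had 30.6 and 14.5, and 45.8 and 57.9. The Ccnd2 ratio passed the mark under median-of-ratios scaling (−1.03), was −0.02 with Neurog3-positive cells from the endocrine-like clusters alone, and was 0.77, the other way, at 4 or more Neurog3 UMIs.

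Among the G1 genes, Fbxw7 had the highest KO ratio in progenitors, 2.02 (1.18 to 3.45), and Sesn1 the lowest, 0.486 (0.251 to 0.881). In Neurog3-positive cells Gadd45g was highest at 5.01 (2.65 to 10.5) and Cdk4 lowest at 1.04 (0.819 to 1.31), and in hormone-stage cells Cdkn1c was highest at 1.84 (1.5 to 2.25) and Btg1 lowest at 0.720 (0.506 to 1.02). Of these, Gadd45g passed the mark.

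Other values moved with the higher Cdkn1a of KO progenitors. Under other settings 2 clusters scored highest for the progenitor markers, and they held the libraries unequally. With at least 2000 detected genes the higher-scoring one had 33 WT and 42 KO cells and the other 82 WT and 0 KO cells, and at a clustering resolution of 0.8 they had 58 and 38, and 51 and 3. With progenitors taken from the higher-scoring cluster, the Cdkn1a log2 ratio was 1.04 and 1.43 under these settings. In the main setting, KO progenitors had a median depth of 16205 UMIs against 12833 in WT progenitors. The 8 hormone genes summed to 600 CPM against 90.9, with 4 of them at 0 in KO and 3 in WT, and the range over cells was 0 to 9802 against 0 to 3699. The 12 hepatobiliary markers summed to 1820 CPM against 544, with Sox17 at 0 in KO and none at 0 in WT, and single cells ranged from 0 to 3588 and from 0 to 3556. With cells that carried a Neurog3 UMI or hormone RNA left out, a choice made after seeing the data, Cdkn1a was at 169 CPM in the 9 KO cells left and at 32.7 in the 58 WT cells, from 23 UMIs each. Hepatobiliary-like cluster 7 had 35.9 CPM of Cdkn1a in WT and 29.7 in KO. The part of depth and of hepatobiliary-like RNA in the progenitor difference was not tested.

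The progenitor difference fell below the 2-fold mark with no filter on detected genes (log2 ratio 0.80), in the coarser clustering (0.78) and with a pseudocount of 50 (0.79). The hormone-stage difference did so at 4 Neurog3 UMIs (0.96), with a pseudocount of 50 (0.92) and with the lower hormone threshold (0.98).

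Accessibility of the 7 genes was given as a gene score, scaled in each cell to sum to 10000 over the 8269 listed genes. The 2 stages were scaled in separate tables, so each gene is set beside others of its own table. A gene is given as higher or lower where the log2 ratio of mean scores is at least 0.5 either way and the gene is above 0 in at least 10% of cells. The E10.5 libraries held 838 WT and 700 KO cells, and the E13.5 libraries 2314 and 602. No library shared more than 4 barcodes with another.

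At E10.5 the members were broadly accessible and close to equal between genotypes. Mean scores in WT and KO were 2.70 and 2.99 for Cdkn1a, 2.15 and 2.26 for Cdkn1b, 2.38 and 2.53 for Gadd45a, and 3.64 and 3.68 for Btg2. They were 2.83 and 2.87 for Ccnd1, 2.03 and 1.83 for Ccnd2, and 2.40 and 2.27 for Ccnd3. All exceeded the mean of the median gene, 1.04 in both libraries, and lay between the 85.6 and 98.9 percentiles of the listed genes. None passed the mark in either direction, against 0.231% of genes higher and 0.414% lower.

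Endocrine-like cells at E10.5 (58 WT and 66 KO) had more accessible Btg2 than the other cells, 5.16 against 3.53 in WT and 5.59 against 3.49 in KO, log2 ratios of 0.55 and 0.68. Ccnd1 was lower there in WT, 1.85 against 2.91 (−0.66), and less so in KO, 2.57 against 2.90 (−0.17). Cdkn1a, which had far more RNA in Neurog3-positive cells than in progenitors, had scores of 2.38 against 2.72 in WT and 2.91 against 3.0 in KO. The cells compared are unlike, since no progenitor or Neurog3-positive class was set in the accessibility data. Ccnd2 was at −0.48 and −0.49, just inside the mark. The counts were thus 1 of 7 higher and 1 lower in WT, against 9.38% and 14.2% of genes, and 1 and 0 in KO, against 9.73% and 15%. The Neurog3 score itself was higher in these cells, with log2 ratios of 1.09 and 0.96.

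At E13.5 the libraries differed in their makeup, and the members' totals moved with it. Erythroid-like cells were 140 of 2314 in WT and 271 of 602 in KO. In all cells, Cdkn1b was higher in KO (3.52 against 2.34, log2 ratio 0.59) and Ccnd1 lower (1.71 against 2.46, −0.53), so 1 of 7 was higher and 1 lower, against 9.36% and 16.0% of genes. Erythroid-like cells had Cdkn1b scores of 6.26 in WT and 5.40 in KO and Ccnd1 scores of 0.641 and 0.810. Without these cells, Cdkn1b was at 2.09 in WT and 1.98 in KO (−0.08) and Ccnd1 at 2.58 and 2.45 (−0.08), so neither difference remained.

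Outside the erythroid-like cells, other members differed. Btg2 was lower in KO, 3.69 against 5.46 (−0.56), and Ccnd2 higher, 2.12 against 1.49 (0.51), so 1 of 7 was higher and 1 lower, against 2.07% and 1.58% of genes. The Btg2 difference held its direction in each of the unnamed clusters 0 (5.14 and 3.70 in WT and KO) and 1 (5.46 and 2.92) and in endocrine-like cluster 2 (6.24 and 4.65). It passed the mark in cluster 1 alone (−0.90). Ccnd2 was 1.65 and 2.32, 1.54 and 2.09, and 0.965 and 1.29 in the same clusters, within the mark in each. Cdkn1a was 3.05 in WT and 2.88 in KO, within the mark. The cell barcodes of the E13.5 libraries name different months, July for WT and September for KO, and genotype and month therefore cannot be told apart.

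Endocrine-like cells at E13.5 (371 WT and 50 KO) had lower Ccnd2 scores than the other non-erythroid cells, 0.965 against 1.59 in WT (−0.72) and 1.29 against 2.27 in KO (−0.81). Ccnd3 was lower in KO, 1.82 against 2.84 (−0.64), and at −0.34 in WT. Btg2 had log2 ratios of 0.23 and 0.40 and Cdkn1a of −0.26 and −0.44. The counts were 0 of 7 higher and 1 lower in WT, against 4.53% and 5.76% of genes, and 0 and 2 in KO, against 13.5% and 16.2%. In KO the Neurog3 score was not higher in the endocrine-like cells (−0.08), whereas in WT it was (0.95).

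**Figure D5:**
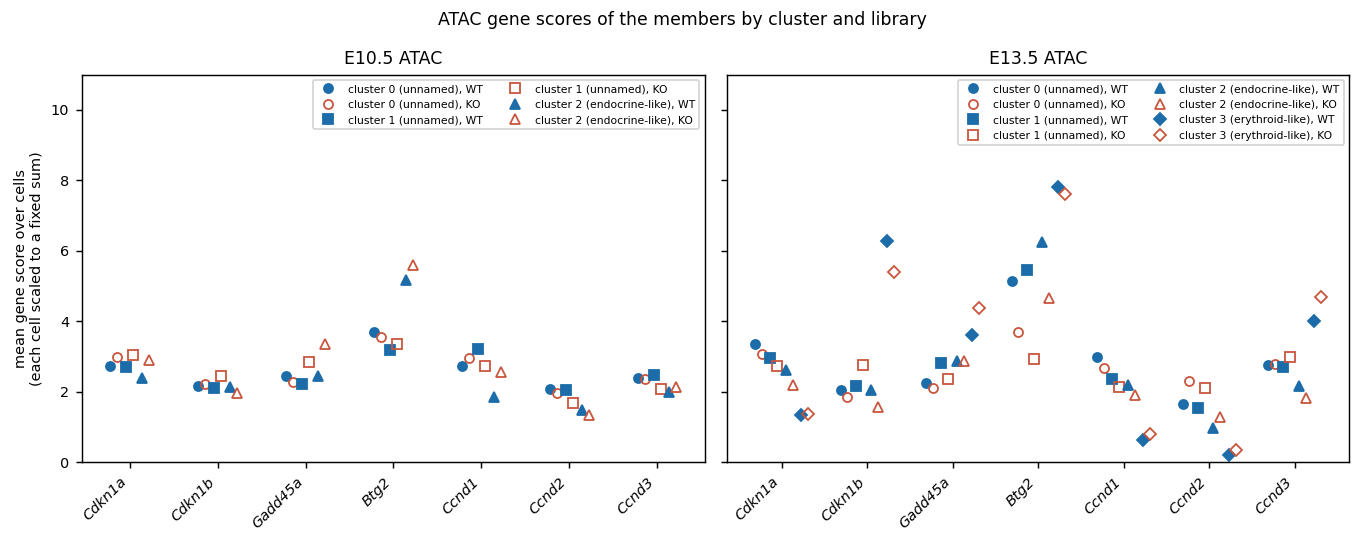
Mean gene scores of the 7 members are plotted for each cluster of cells at E10.5 and E13.5, filled blue symbols for WT and open red ones for KO. The 2 stages were scaled in separate tables. At E13.5 erythroid-like cells (diamonds) stand high for Cdkn1b and Btg2 and low for Ccnd1 and Ccnd2.

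Set side by side, Btg2 ranked at the 98.9 percentile of listed genes in WT at E10.5 and at 99.8 at E13.5, and Cdkn1a at 95.9 and 97.1. Ccnd2 ranked at 89.5 and 72.2, and Ccnd1 at 96.7 and 94.2. These ranks are over all cells, and the E13.5 tissue held other cell types.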

How the data were processed

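Single-cell RNA was read with a 10x 3′ v3 kit and accessibility with a 10x ATAC kit, per the labels' protocols. The deposited RNA table holds UMI counts, and each deposited ATAC table holds a gene signal that sums to 10000 in every cell, read from the values. The submitters' processing notes name mm10, and the aligner, the caller and the tool behind the gene signal were not given in the sources used here.

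RNA cells in which 1000 or more genes were detected went into clustering by scanpy 1.11.5 with leidenalg 0.10.2 (2000 variable genes, 30 principal components, 15 neighbours, resolution 0.5 for RNA and 0.3 for ATAC). Kept cells held 4106604 UMIs in WT and 4011819 in KO, and ATAC cells had a median of 3454 to 5181.5 genes above 0. Doublets were marked and kept. Counts were summed by class, with exact intervals from scipy 1.17.1 that cover counting error only. The ratio step was run on simulated Poisson counts of class sums, which hold counting error and not the spread between cells.

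All 7 members were reported in every class. From a G1 list of 36 genes, the 3 highest and 3 lowest hormone-stage over progenitor ratios were named among genes that reached 50 UMIs in the comparison of each library, with the highest and lowest KO over WT in each class. For each member the 3 most similar genes were named, among genes with at least 200 UMIs. Members and lists were chosen with earlier results of these data known. The alternatives were 15 planned RNA settings and 6 ATAC settings, and 2 RNA settings were chosen after seeing the data.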

Additional observations from a re-analysis of the deposited data

Results flagged for a closer look

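Ccnd2 in Neurog3-positive cells lay on opposite sides of the progenitor level in the 2 RNA libraries. The log2 ratio was 0.24 in WT (ratio 1.19, 95% interval 0.933 to 1.49) and −1.21 in KO (ratio 0.424, 0.315 to 0.560). The difference between the libraries was not tested, since each genotype is 1 library. In WT, 33 of the 85 Ccnd2 UMIs came from 1 cell, and the WT log2 ratio was −0.60 with Neurog3-positive cells from the endocrine-like clusters alone and −1.34 at 4 or more Neurog3 UMIs.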

How the results depend on the processing

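No paired analysis was possible because each group is 1 library. Of 24 member values past their mark, 14 stayed past it under every alternative that gave a value. The count of class differences, 20, was 6 with cells thinned to 2000 UMIs, where 10 values kept enough UMIs, and 15 to 24 otherwise. The count of genotype differences in RNA, 2, was 1 with no filter on detected genes, 1 at the coarser clustering, 6 where 1 Neurog3 UMI was enough, 0 when thinned (4 values kept enough UMIs) and 0 with a pseudocount of 50. It was 1 with each of the 2 settings chosen after seeing the data, the lower hormone threshold and progenitors without Neurog3 or hormone RNA. In the second of these, progenitor Cdkn1a had 23 UMIs in each library, too few to compare, at 169 CPM in KO and 32.7 in WT. The count of accessibility differences, 2, was 0 in endocrine-like cells alone and 0 by the share of cells above 0. The E13.5 Cdkn1b log2 ratio turned to −0.082 without erythroid-like cells, −0.39 in endocrine-like cells alone and −0.036 outside both, and the Ccnd1 ratio turned to 0.17 by the share of cells above 0. The KO Ccnd2 step from progenitors to Neurog3-positive cells was −0.96 at the coarser clustering, −0.62 with 1 Neurog3 UMI and −0.35 when thinned. Except where fewer values were compared, the cause was not tested. Small classes, 14 to 36 Neurog3-positive or hormone-stage cells, limit Cdkn1b and Gadd45a most.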
